A study of Mus musculus with 6 samples.

Results

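Transcripts of hepatocytes, the main cell type of the liver, were followed on arrays of mouse skeletal muscle. The 36 genes were chosen by symbol as textbook products of hepatocytes, with their covariation over these same arrays already known, and 35 of them were measured among the 19938 genes tested. The vitamin D-binding protein gene Gc was not analysed here. A probe set is the group of probes that reports 1 transcript, and where a gene had several, that of highest mean level stood for it. Total RNA from frozen skeletal muscle was labelled with biotin for Affymetrix MoGene arrays. The TG group holds 3 arrays of mice labelled transgenic, and the WT group holds 3 arrays of mice labelled wild type, with a separate subject named for each array. The series is titled for SOCS-3, a suppressor of cytokine signalling, but the labels do not give what the transgene carries, what drives it, which muscle was taken, or the age, sex or strain of the mice.

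Hepatocytes make most plasma proteins and carry out the urea cycle, amino acid breakdown and much of drug oxidation. Their identity genes are switched on together by a small set of transcription factors, among them HNF1, HNF4, forkhead factors and C/EBP proteins. During inflammation, cytokines that act through STAT3 raise a subset of these genes, the acute phase proteins, and SOCS3 limits that signal. Skeletal muscle itself is not known as a main site of albumin, fibrinogen or fetuin synthesis.

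Values are log2 levels, on which a step of 1 is a doubling of the signal. Median levels per array lay between 5.98 and 6.04, and 3 arrays per group limit the precision of every comparison. All 24 skeletal muscle markers, such as Acta1, Ckm and Myh4, were measured, with gene means between 6.27 and 14.6 and a median range over the 6 arrays of 0.086. Socs3 itself stood at 7.12, 7.25 and 7.07 on TG arrays 1, 2 and 3, against 7.43, 7.41 and 7.37 on WT arrays 1, 2 and 3. Its TG minus WT difference was -0.26 (SE 0.07; limma, adjusted p = 0.660), with all TG arrays below all WT arrays, and whether its probe set would read a transgene is not stated in the labels. The single gene past the threshold over all genes was Casp12, an inflammatory caspase family gene, which had a mean ± SD over 3 arrays of 6.74 ± 0.15 in TG, against 7.88 ± 0.05 in WT (adjusted p = 0.0421 by limma), and it is not a hepatocyte transcript.

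The promoters of 28 of the 35 genes were found in a RefSeq table of 300-base windows, from 250 bases before to 50 bases after the start of transcription, on GRCm38.p6. Those of Alb, Serpina1c and Ahsg are shown because these genes spread the most over the arrays. That of Hpx is shown because it was highest on WT array 2, while these were highest on TG array 2. Capitals mark matches, on either strand, to the letters GTTAAT (an HNF1 half-site), TTGCNNAA (C/EBP) and TGTTTGC (forkhead), and the windows are read on the gene's own strand, 5′ to 3′.
Alb: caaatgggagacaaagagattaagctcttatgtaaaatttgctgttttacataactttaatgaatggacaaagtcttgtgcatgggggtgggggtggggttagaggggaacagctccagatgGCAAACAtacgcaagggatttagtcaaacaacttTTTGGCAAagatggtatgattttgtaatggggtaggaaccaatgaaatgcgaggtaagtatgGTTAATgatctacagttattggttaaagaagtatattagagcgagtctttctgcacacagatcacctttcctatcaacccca
Serpina1c: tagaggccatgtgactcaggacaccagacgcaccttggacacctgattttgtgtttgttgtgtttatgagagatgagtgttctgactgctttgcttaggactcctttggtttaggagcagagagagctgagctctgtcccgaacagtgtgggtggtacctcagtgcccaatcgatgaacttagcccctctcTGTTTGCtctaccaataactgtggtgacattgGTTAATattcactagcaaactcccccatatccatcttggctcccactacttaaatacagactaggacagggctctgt
Ahsg: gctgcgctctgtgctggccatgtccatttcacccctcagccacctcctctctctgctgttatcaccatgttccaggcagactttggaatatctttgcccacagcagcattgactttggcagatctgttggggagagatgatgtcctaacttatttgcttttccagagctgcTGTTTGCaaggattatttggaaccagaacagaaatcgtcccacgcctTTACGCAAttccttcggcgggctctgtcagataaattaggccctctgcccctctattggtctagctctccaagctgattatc
Hpx: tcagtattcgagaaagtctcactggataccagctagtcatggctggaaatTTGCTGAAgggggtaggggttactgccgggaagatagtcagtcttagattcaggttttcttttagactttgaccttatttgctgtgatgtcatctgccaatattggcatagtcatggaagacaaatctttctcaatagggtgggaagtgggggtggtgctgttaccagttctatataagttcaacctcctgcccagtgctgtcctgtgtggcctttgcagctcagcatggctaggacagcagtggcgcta
The windows lie at chr5:90460620-90460919, plus strand for Alb, at chr12:103904901-103905200, minus strand for Serpina1c, at chr16:22891765-22892064, plus strand for Ahsg, and at chr7:105600067-105600366, minus strand for Hpx. GTTAAT was present in 9 of 28 genes (32.1%), against 8.24% of the 27025 genes in the table. TTGCNNAA was present in 12 of 28 (42.9%), against 12.2% of all genes. TGTTTGC was present in 8 of 28 (28.6%), against 5.76% of all genes. Alb held all 3 kinds of match, Serpina1c an HNF1 half-site and a forkhead match, Ahsg a C/EBP and a forkhead match, and Hpx a C/EBP match alone. Of the other motifs searched on both strands, CAAAGTCCA (HNF4) was present in 1 gene, against 0.56% of all genes, TTCNNNGAA (STAT) in 4 genes or 14.3%, against 9.55%, and TATAAA in 9 genes or 32.1%, against 15.7%. A match is a run of letters and not a measured binding site. The 35 genes lie on 17 chromosomes, with at most 5 on 1 of them, and Fgg, Fga and Fgb as well as Apoa1 and Apoc3 are next to each other in the RefSeq gene order.

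The hepatocyte transcripts moved up and down together from one mouse to the next, and the levels in TG and WT overlapped for every one of them. Their range over the 6 arrays, the highest minus the lowest log2 level, had a median of 1.65, beside 0.31 over all genes. A range of at least 1 was reached by 27 of the 35, beside 1.26% of all genes. Alb, Serpina1c and Ahsg had the widest ranges of all 19938 genes, at 4.39, 4.26 and 3.66, and 11 of the 20 widest ranges belonged to the 35. TG array 2 held the highest level of 27 of them, beside 15.4% of all genes, and TG array 3 the lowest level of 31, beside 15.0% of all genes. Both held for 25, beside 3.0% of all genes. These counts describe values that were known when the genes were chosen, and no test was made of them. In bulk tissue, fewer hepatocyte-type cells and less of such RNA per cell cannot be told apart.

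**Figure D1:**
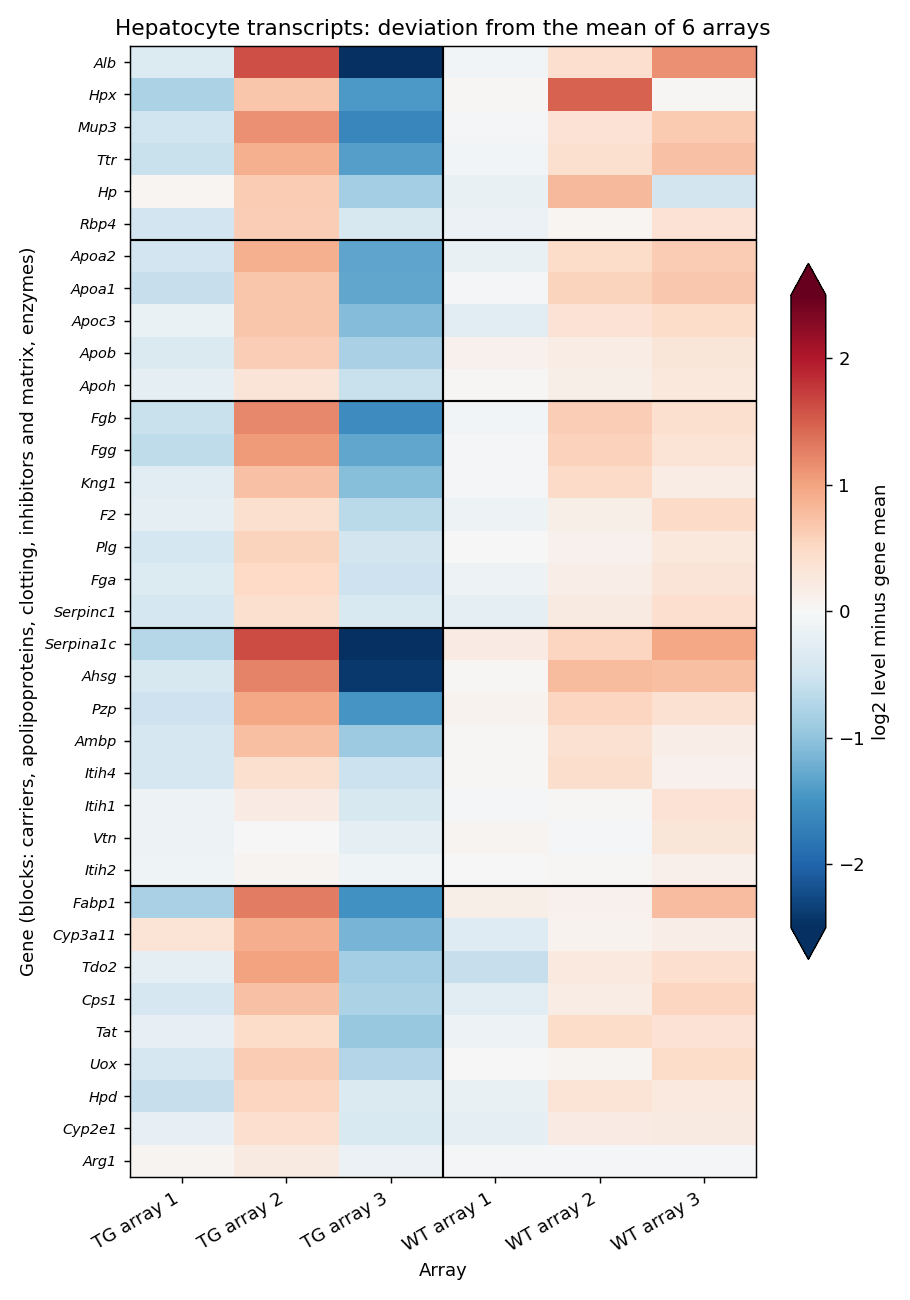
Heat map of the 35 hepatocyte transcripts (rows, in blocks by role and by falling range within a block) on 3 TG and 3 WT arrays (columns), coloured by the log2 level minus the gene's mean over the 6 arrays, with the colour scale clipped at its ends. TG array 2 is high and TG array 3 low in nearly every row, with median deviations of 0.69 and -0.86, while Vtn, Itih2 and Arg1 stay near 0.

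Over all 35 transcripts the median deviation from the gene's own mean was -0.41, 0.69 and -0.86 on TG arrays 1, 2 and 3, against -0.05, 0.33 and 0.36 on WT arrays 1, 2 and 3. The same deviations over all genes lay between -0.020 and 0.029. The WT arrays therefore sat inside the span of the TG arrays, but not in its middle. TG array 3 lay below all WT arrays in all 35, beside 26.1% of all genes, and TG array 1 in 29, beside 32.9%. TG array 2 lay above all WT arrays in 27, beside 23.1% of all genes. The SD over 3 arrays was larger in TG than in WT for 34 of the 35, Vtn being the other, beside 50.4% of all genes and 65.9% of the 252 genes with a range of at least 1. Both extreme arrays of most of the 35 are TG arrays, and their profile was known when they were chosen, so this count is a description. Its median was 0.79 in TG and 0.30 in WT over the 35, and 0.10 in TG and 0.099 in WT over all genes.

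Among the carriers of the plasma, albumin spread the most. Alb, the most abundant plasma protein, had levels of 8.70, 10.67 and 6.29 on TG arrays 1, 2 and 3, against 8.99, 9.48 and 10.19 on WT arrays 1, 2 and 3. The lowest and the highest level were both in TG mice and differed 20.9-fold, and the WT levels lay between them. Mup3, a major urinary protein that carries pheromones, had levels of 6.59, 8.23 and 5.46 on TG arrays 1, 2 and 3, against 7.06, 7.45 and 7.74 on WT arrays 1, 2 and 3. It kept the same order of arrays as Alb, although its family holds near-identical genes whose signal its probes may share. Ttr, the thyroxine carrier transthyretin, had levels of 6.76, 8.20 and 5.94 on TG arrays 1, 2 and 3, against 7.24, 7.72 and 8.04 on WT arrays 1, 2 and 3, again in that order. Hpx, the haem scavenger hemopexin, had levels of 5.92, 7.40 and 5.27 on TG arrays 1, 2 and 3, against 6.73, 8.17 and 6.73 on WT arrays 1, 2 and 3. Its highest level was on WT array 2, not on TG array 2. Hp, the haemoglobin scavenger haptoglobin, had levels of 7.08, 7.66 and 6.18 on TG arrays 1, 2 and 3, against 6.86, 7.85 and 6.57 on WT arrays 1, 2 and 3, also highest on WT array 2. Rbp4, the retinol carrier, which fat cells make as well, ranged over 1.10.

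**Figure D2:**
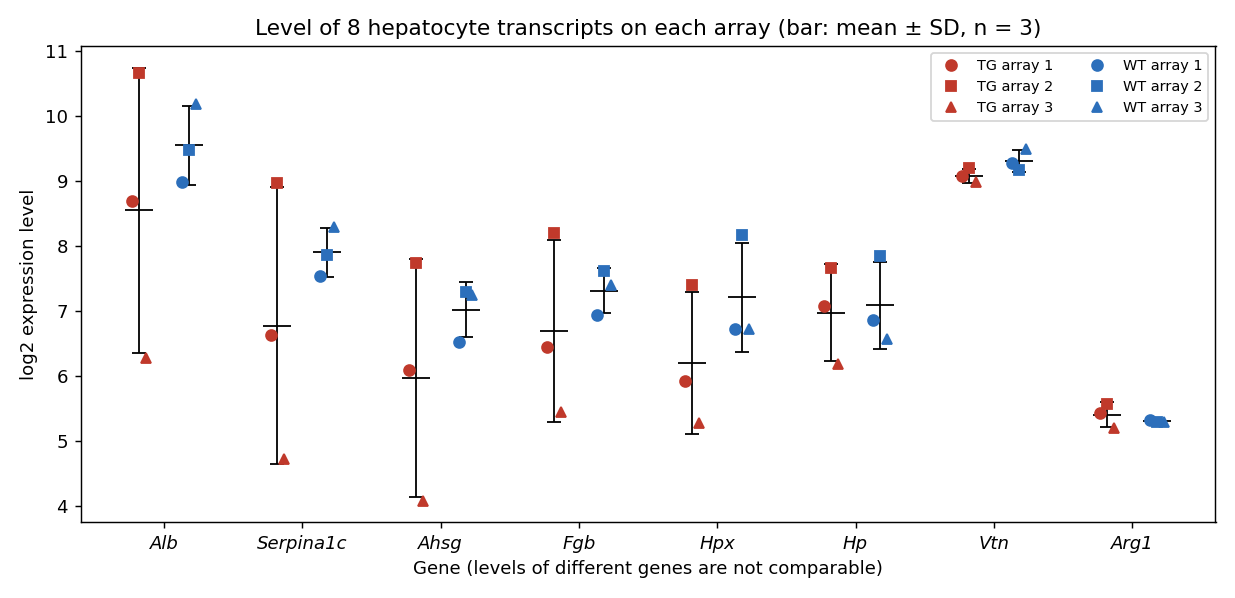
Log2 expression level of 8 hepatocyte transcripts on each array, TG in red and WT in blue, with 1 symbol per array and bars for the mean ± SD over 3 arrays. In Alb, Serpina1c, Ahsg and Fgb the highest and the lowest point are both TG arrays, Hpx and Hp are highest on WT array 2, and Vtn and Arg1 spread by 0.51 and 0.38.

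The apolipoproteins, which package lipids for transport, all had their highest level on TG array 2 and their lowest on TG array 3. Apoa2, of high-density lipoprotein, had levels of 7.31, 8.68 and 6.48 on TG arrays 1, 2 and 3, against 7.61, 8.26 and 8.43 on WT arrays 1, 2 and 3. Apoa1, the main protein of the same particle, had levels of 6.96, 8.22 and 6.23 on TG arrays 1, 2 and 3, against 7.47, 8.08 and 8.20 on WT arrays 1, 2 and 3. For both, TG array 2 and WT arrays 2 and 3 lay above the other 3 arrays. Apoc3, an inhibitor of lipoprotein lipase, had levels of 6.56, 7.42 and 5.63 on TG arrays 1, 2 and 3, against 6.44, 7.09 and 7.19 on WT arrays 1, 2 and 3. Apob, the structural protein of very-low-density lipoprotein, had levels of 5.57, 6.55 and 5.12 on TG arrays 1, 2 and 3, against 6.04, 6.11 and 6.23 on WT arrays 1, 2 and 3. WT levels of Apob were tight, with an SD of 0.10 in WT beside 0.73 in TG. Apoh, a phospholipid-binding glycoprotein, ranged over 0.86.

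Of the 7 clotting genes, 5 were highest on TG array 2 and 6 were lowest on TG array 3. Fgb, the fibrinogen beta chain, had levels of 6.45, 8.20 and 5.44 on TG arrays 1, 2 and 3, against 6.94, 7.61 and 7.40 on WT arrays 1, 2 and 3. Fgg, the gamma chain, had levels of 5.50, 7.21 and 4.84 on TG arrays 1, 2 and 3, against 6.10, 6.71 and 6.47 on WT arrays 1, 2 and 3. Both chains were higher on WT array 2 than on WT array 3, the reverse of Alb. Kng1, the kininogen from which bradykinin is released, had levels of 5.91, 6.91 and 5.13 on TG arrays 1, 2 and 3, against 6.14, 6.67 and 6.38 on WT arrays 1, 2 and 3, with WT array 2 likewise above WT array 3. F2, prothrombin, had levels of 6.17, 6.79 and 5.71 on TG arrays 1, 2 and 3, against 6.27, 6.53 and 6.87 on WT arrays 1, 2 and 3, and its highest level was on WT array 3. Plasminogen (Plg), the fibrinogen alpha chain (Fga) and antithrombin (Serpinc1) ranged over 1.02, 1.02 and 0.86. Serpinc1 shared neither extreme array, with its highest level of 6.19 on WT array 3 and its lowest of 5.33 on TG array 1. A second Fga probe set, of lower mean level, ranged over 0.73 and was also lowest on TG array 3.

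Among the protease inhibitors, Serpina1c, an alpha-1-antitrypsin gene, had levels of 6.63, 8.97 and 4.72 on TG arrays 1, 2 and 3, against 7.54, 7.87 and 8.30 on WT arrays 1, 2 and 3, a 19.1-fold span between TG arrays 3 and 2. Its paralogues are nearly identical, and the 2 probe sets that list 5 Serpina1 genes together ranged over 2.95 and 3.03, each highest on TG array 2 and lowest on TG array 3. Ahsg, the mineral-binding fetuin-A, had levels of 6.10, 7.74 and 4.08 on TG arrays 1, 2 and 3, against 6.53, 7.29 and 7.25 on WT arrays 1, 2 and 3. Its level on TG array 3 was below those of all other arrays by more than 2. Pzp, a broad-spectrum protease trap, had levels of 6.07, 7.55 and 5.11 on TG arrays 1, 2 and 3, against 6.68, 7.13 and 6.96 on WT arrays 1, 2 and 3. Ambp, the precursor of alpha-1-microglobulin and bikunin, had levels of 5.40, 6.55 and 4.91 on TG arrays 1, 2 and 3, against 5.84, 6.19 and 5.98 on WT arrays 1, 2 and 3. Both were highest on TG array 2 and lowest on TG array 3. The inter-alpha-trypsin inhibitor heavy chains, which stabilise hyaluronan, ranged over 0.98 for Itih4, 0.77 for Itih1 and 0.25 for Itih2. Vtn, the adhesion protein vitronectin, had levels of 9.08, 9.20 and 8.98 on TG arrays 1, 2 and 3, against 9.28, 9.17 and 9.49 on WT arrays 1, 2 and 3. Its range was 0.51, and WT array 3 held its highest level.

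All 9 enzymes and intracellular carriers were highest on TG array 2. Fabp1, the liver fatty acid-binding protein, had levels of 5.36, 7.45 and 4.66 on TG arrays 1, 2 and 3, against 6.31, 6.26 and 6.94 on WT arrays 1, 2 and 3. Cps1, the entry enzyme of the urea cycle, had levels of 5.53, 6.69 and 5.17 on TG arrays 1, 2 and 3, against 5.70, 6.14 and 6.48 on WT arrays 1, 2 and 3. On both, TG arrays 1 and 3 lay below all WT arrays. Cyp3a11, a drug-oxidising cytochrome P450, had levels of 5.81, 6.36 and 4.29 on TG arrays 1, 2 and 3, against 5.14, 5.54 and 5.63 on WT arrays 1, 2 and 3. Here TG array 1 stood above all WT arrays, unlike in Alb, and a probe set shared with 3 paralogues ranged over 1.09. Tdo2, which opens the tryptophan ring, had levels of 4.27, 5.50 and 3.64 on TG arrays 1, 2 and 3, against 3.92, 4.73 and 4.91 on WT arrays 1, 2 and 3, with WT array 1 nearer to TG array 3 than to the other WT arrays. Tat, of tyrosine breakdown, ranged over 1.41, Uox, the urate oxidase, over 1.36, Hpd, also of tyrosine breakdown, over 1.11, and the ethanol-oxidising Cyp2e1 over 0.79. Arg1, the last enzyme of the urea cycle, which macrophages also express, ranged over 0.38, with levels of 5.43, 5.58 and 5.20 on the TG arrays and 5.32, 5.30 and 5.30 on the WT arrays.

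Covariation was described by Pearson's r of each transcript with the mean of the other 34 over the 6 arrays. Its median was 0.97, and it was over 0.9 for 26 of the 35. The lowest values were 0.60 for Arg1, 0.65 for Vtn and 0.69 for Hp, and Ttr and Mup3 both reached 0.99. Over the 595 pairs the median r was 0.90, and without TG arrays 2 and 3, the 2 arrays farthest from the median, it was 0.86 over the other 4. Without these arrays Hp had an r of 0.09, Cyp3a11 of -0.12 and Arg1 of -0.88. All points share 6 arrays and the choice of genes used this covariation, so no p is given.

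Outside the 35, other hepatocyte genes had smaller ranges, with a median of 0.61, and their extremes were shared with further arrays. Their gene means lay between 3.29 and 10.9, beside 4.50 and 9.20 for the 35. Because the 35 were chosen with their profile known, the ranges of both sets are not a like comparison. Of 88 further hepatocyte genes measured of 109 listed, 26 (beside 15.4% of all genes) were highest on TG array 2 and 27 (beside 15.0%) were lowest on TG array 3. More of them, 29 (beside 25.3%), were highest on WT array 3, and 37 (beside 22.2%) were lowest on TG array 1. Their median deviation was -0.19, 0.09 and -0.13 on TG arrays 1, 2 and 3, against -0.04, 0.09 and 0.17 on WT arrays 1, 2 and 3. The range was at least 1 for 9 of them. The widest was that of Cyp4a14, a fatty acid omega-hydroxylase, at 4.16, 5.97 and 4.0 on the TG arrays and 3.75, 4.28 and 4.52 on the WT arrays. Apoc1, an apolipoprotein of very-low-density lipoprotein, stood at 5.36, 6.21 and 4.79 on the TG arrays and 5.48, 5.48 and 6.0 on the WT arrays. Ces1c and Ces3a, carboxylesterases, ranged over 1.33 and 1.26. Each of these 4 was highest on TG array 2, although Cyp4a14 was lowest on WT array 1 and Ces3a on TG array 1. Of all 9, 5 were highest on TG array 2 (Azgp1 being the other), Mat1a, G6pc and Trf on WT array 2, and Inmt on TG array 3, while 3 of the 9 had their lowest level on TG array 1 and 4 on TG array 3.

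The genes most like the 35 were ranked by Pearson's r with their mean profile over the 6 arrays, among 3626 other genes with a range of at least 0.5. The first 20 had r of 0.94 to 0.99, and 6 of them (Azgp1, Hrg, Hao1, Cyp2d26, Apoc1 and C8a) were on the hepatocyte list, which made up 1.60% of the genes ranked. Mug1, the murinoglobulin protease trap, led with 0.99 and a range of 1.55. Slc27a2, a very-long-chain acyl-CoA synthetase, had 0.96 and a range of 1.39. Ugt3a2, Pigr, Cyp2j5, Mettl7b and Sardh, which removes a methyl group from sarcosine, were also among them, as were genes of other kinds, namely Flt3, Defb43, Eef1akmt3, Gm10415, Gm10228 and the odorant receptor genes Olfr20 and Olfr1158. With 3626 genes ranked over 6 arrays no p is given, and without TG arrays 2 and 3 the r of the 20 was as low as 0.62, that of Olfr1158.

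**Figure D3:**
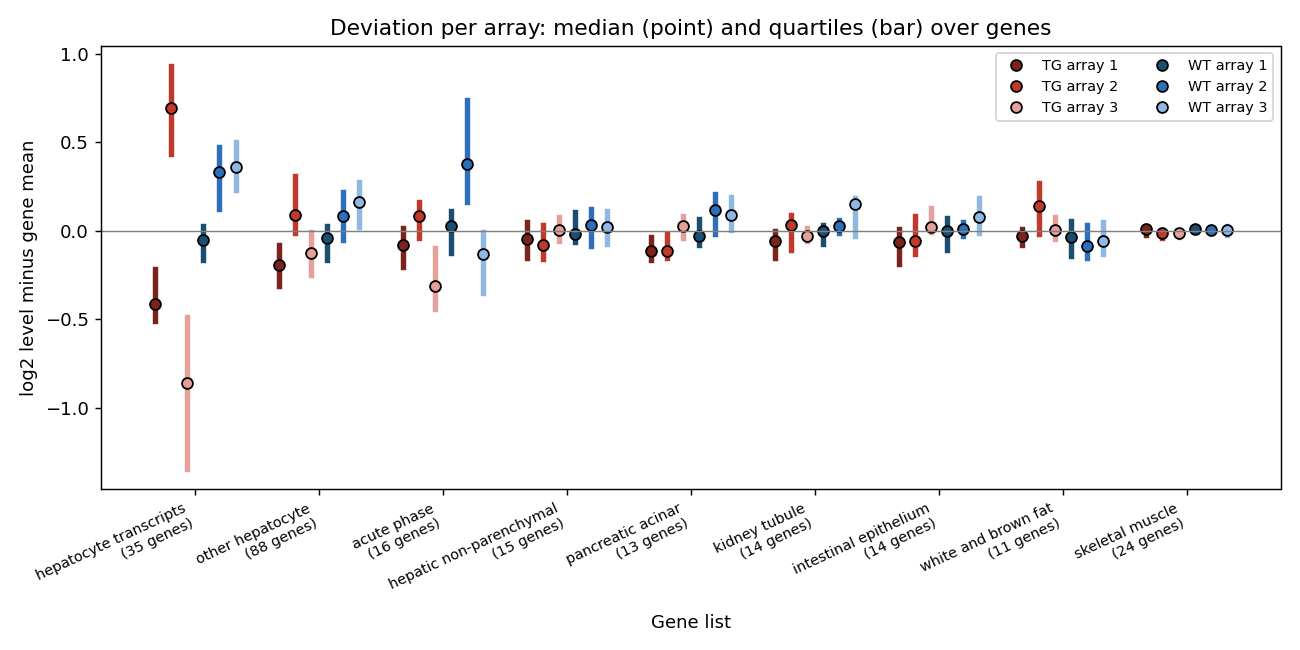
Log2 level minus the gene's mean over the 6 arrays, as the median (point) and quartiles (bar) over the genes of each list, the 4 erythroid genes not drawn, for TG arrays 1 to 3 in red shades and WT arrays 1 to 3 in blue shades. The spread is widest for the 35 hepatocyte transcripts, WT array 2 is highest for the acute phase list at 0.38, and skeletal muscle lies within 0.012 of 0.

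Markers of the other cells of the liver had small ranges, with their extremes mostly on other arrays. Of 15 measured markers of Kupffer cells, sinusoidal endothelium, stellate cells and bile duct, 0 were highest on TG array 2 and 1 was lowest on TG array 3, beside 15.4% and 15.0% of all genes. TG array 2 held the lowest level of 6 of the 15, beside 17.9% of all genes. Their median deviation was -0.04, -0.08 and 0.00 on TG arrays 1, 2 and 3, against -0.02, 0.04 and 0.02 on WT arrays 1, 2 and 3. The list's mean level lay between 5.19 and 5.26 on TG arrays and between 5.28 and 5.32 on WT arrays. The widest ranges were 0.73 for Vsig4, 0.66 for Gdf2, 0.59 for Timd4 and 0.59 for Cd5l, and Clec4f, a Kupffer cell lectin, ranged over 0.22.

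Other tissues were set beside these in the same way. For 13 pancreatic acinar genes the widest ranges were 0.67 (Cela3b), 0.60 (Pnliprp1), 0.54 (Cela1) and 0.53 (Reg1). For 14 kidney tubule genes, of which Pvalb is also a muscle gene, they were 0.57 (Calb1), 0.56 (Umod), 0.51 (Nphs1) and 0.50 (Napsa). For 14 genes of the intestinal epithelium, a tissue that also makes Apoa1, Apob and Fabp1, they were 0.69 (Lct), 0.67 (Reg3g), 0.58 (Fabp2) and 0.58 (Alpi). Beside 15.4% of all genes, 0 of the 13 pancreatic, 3 of the 14 kidney and 1 of the 14 intestinal genes were highest on TG array 2. None of these genes reached the median range of the 35 hepatocyte transcripts. Of 10 erythroid genes 4 were measured, with ranges of 0.70 (Car1), 0.67 (Epb42), 0.49 (Slc4a1) and 0.30 (Alas2). Of 11 fat genes, 6 were highest on TG array 2 and 0 were lowest on TG array 3, beside 15.4% and 15.0% of all genes. The widest ranges of fat genes were 0.80 (Adipoq), 0.67 (Cidea), 0.63 (Pck1) and 0.60 (Lep). Their median deviation on TG array 2 was 0.14, and their part in the result was not tested. In muscle, Myh2, Tnnt1, Myh7 and Mb had the widest ranges, 0.67, 0.40, 0.30 and 0.22. No gene of these 6 lists had a range of 1 or more.

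A second pattern crossed the first in the acute phase genes, most of which were highest on WT array 2. Saa2, a serum amyloid A, had levels of 4.56, 4.51 and 4.10 on TG arrays 1, 2 and 3, against 5.10, 7.50 and 4.52 on WT arrays 1, 2 and 3. Saa1 had levels of 3.27, 3.23 and 2.65 on TG arrays 1, 2 and 3, against 3.04, 5.01 and 2.90 on WT arrays 1, 2 and 3. In both, WT array 2 stood far above the rest, and TG array 2 was no higher than TG array 1. Orm1, the alpha-1-acid glycoprotein, had levels of 5.32, 6.32 and 5.26 on TG arrays 1, 2 and 3, against 5.77, 6.93 and 5.99 on WT arrays 1, 2 and 3. Lcn2, the iron-siderophore binding lipocalin, ranged over 1.21 and was also highest there. In all, 12 of 16 measured acute phase genes were highest on WT array 2, beside 15.5% of all genes. On TG array 3, 11 were lowest, beside 15.0% of all genes. Fgl1, Serpina3n and Crp were highest on TG array 2 and Saa3 on WT array 1, each lowest on TG array 3. The median deviation of the list was -0.08, 0.09 and -0.31 on TG arrays 1, 2 and 3, against 0.03, 0.38 and -0.13 on WT arrays 1, 2 and 3.

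The 2 patterns met in some of the 35. To compare arrays on a linear scale, the signal above that on TG array 3 was given as a percentage of the same quantity on TG array 2, for the 25 transcripts with a range of at least 1 and their lowest level on TG array 3. Its median was 21.1% on TG array 1, against 34.7%, 63.4% and 66.3% on WT arrays 1, 2 and 3. For Alb it was 21.8% on TG array 1, against 27.7%, 41.0% and 70.0% on WT arrays 1, 2 and 3. Hpx reached 192% on WT array 2 and 51.9% on WT array 3, and Hp 121% and 17.2%. The other 23 lay between 34.6% (Fabp1) and 99.5% (Tat) on WT array 2. WT array 2 exceeded WT array 3 in 9 of the 25, among them Fgb and Fgg, which are acute phase genes as Hpx and Hp are, and also Kng1, Ahsg, Pzp, Ambp and Tat. Fga, the remaining fibrinogen chain, had 60.1% on WT array 2 and 77.4% on WT array 3.

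**Figure D4:**
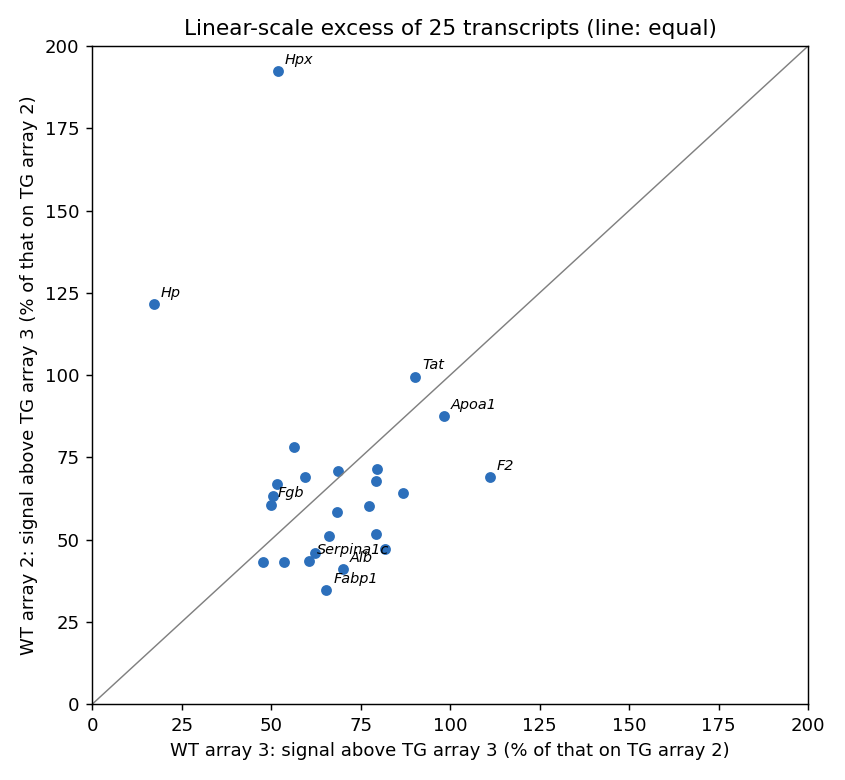
Linear signal above TG array 3, as a percentage of that on TG array 2, on WT array 3 (horizontal axis) and WT array 2 (vertical axis) for 25 hepatocyte transcripts, with a line of equal values. Hpx (192%) and Hp (121%) lie far above the line and Alb (41.0% against 70.0%) below it.

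The comparison of TG with WT asked whether the level of these transcripts differed with the transgene label. None of the 35 passed an adjusted p of 0.05 over all genes (limma), beside 0.00502% of all genes, and none had an unadjusted p under 0.05, beside 6.75%. Adjusted p-values ran from 0.741 (Vtn) to 0.990 (Cyp3a11 and Tdo2). The groups overlapped for every one of the 35, while 12.3% of all genes had groups that did not overlap. The genes were chosen with their profile over these arrays known. A highest and a lowest level that are both in TG force an overlap and widen the SD. The counts of overlaps and of unadjusted p-values are therefore descriptions, and no conclusion on the transgene label is drawn from them. The difference was below 0 in 33 of the 35, beside 56.2% of all genes, with Arg1 at 0.10 (SE 0.10) and Cyp3a11 at 0.05 (SE 0.47) above 0. Its median was -0.37, beside -0.016 over all genes. Because the transcripts vary together, their signs are not separate observations.

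The differences of the widest-ranging genes were the least certain. The mean ± SD of Alb over 3 arrays was 8.55 ± 2.20 in TG, against 9.55 ± 0.60 in WT, and the TG minus WT difference was -1.0 (95% interval -3.24 to 1.25; adjusted p = 0.861 by limma). That of Serpina1c was 6.77 ± 2.13 in TG, against 7.90 ± 0.38 in WT, with a difference of -1.13 (95% interval -3.26 to 1.0). Ahsg differed by -1.05 (95% interval -2.90 to 0.80) and Hpx by -1.01 (95% interval -2.37 to 0.34). These intervals hold both no difference and differences of several fold, so at this number of arrays a TG effect on them was neither found nor bounded closely. The tightest estimates were those of Itih2, at -0.11 (95% interval -0.30 to 0.07), Arg1, at 0.10 (95% interval -0.13 to 0.33), and Vtn, at -0.22 (95% interval -0.46 to 0.01; limma, adjusted p = 0.741). By role, the median difference was -0.68 for 6 plasma carriers, -0.38 for 5 apolipoproteins, -0.34 for 7 clotting genes, -0.38 for 8 inhibitors and matrix proteins and -0.26 for 9 enzymes and intracellular carriers.

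**Figure D5:**
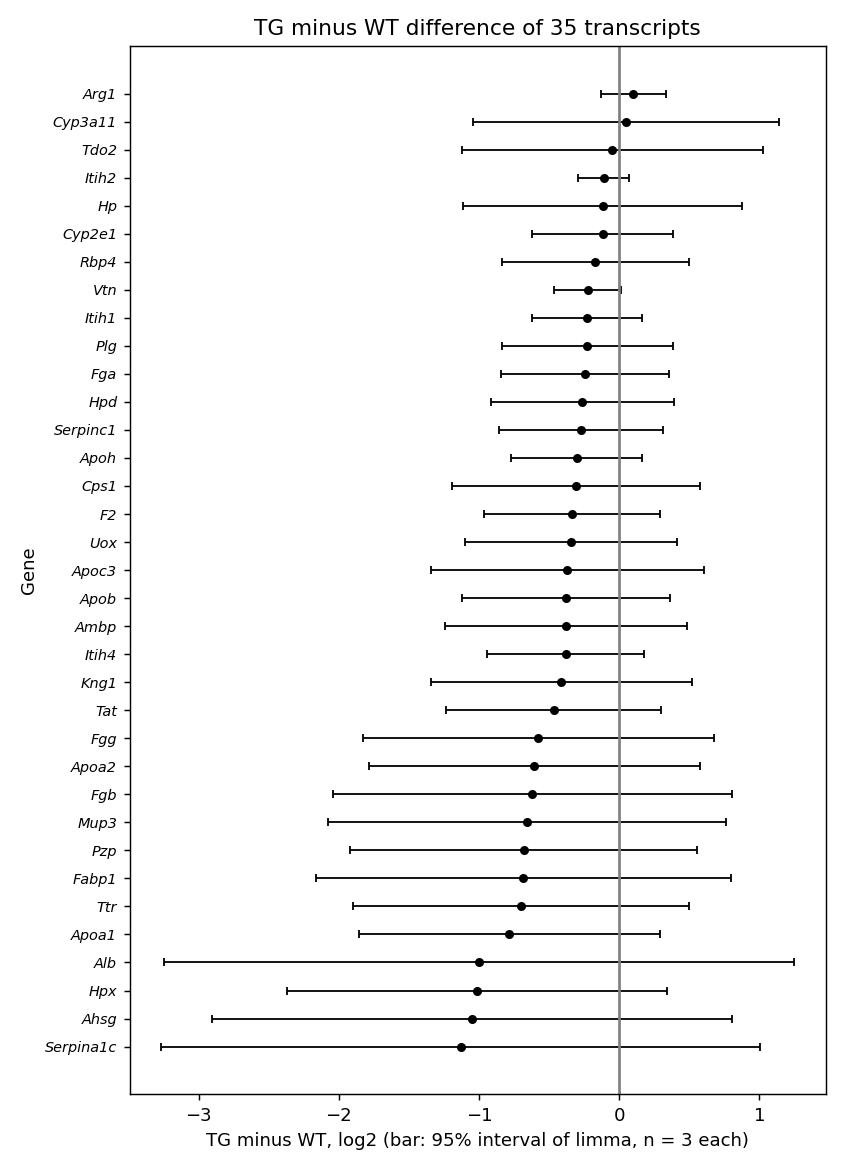
TG minus WT difference of log2 level for each of the 35 hepatocyte transcripts, sorted from Arg1 (0.10) at the top to Serpina1c (-1.13) at the bottom, with 95% intervals of limma over 3 arrays per group. Every interval includes 0.

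Single arrays set the size of the shift. Leaving out TG array 3 moved the median difference over the 35 to -0.070, with 25 of them below 0, and leaving out TG array 2 moved it to -0.76. Alb differed by 0.13 without TG array 3 and by -2.06 without TG array 2. Among the 88 further hepatocyte genes the median difference was -0.13 (0.019 among those above the median level of all genes), with 66 or 75% below 0, beside 56.2% of all genes. None passed the threshold (limma), 12 or 13.6% had an unadjusted p under 0.05, beside 6.75%, and 11 lay lower on every TG array than on every WT array, or 12.5%, beside 7.76% of all genes. The acute phase list had a median difference of -0.17 and 15 of 16 genes (93.8%, beside 56.2%) below 0. None of the 16 passed (smallest adjusted p = 0.777, limma), and 0 had an unadjusted p under 0.05, beside 6.75%. In the list of other liver cells 11 of 15 (73.3%, beside 56.2%) were below 0, with a median of -0.074. None of the 15 passed (limma), and 3 or 20% had an unadjusted p under 0.05, beside 6.75%. Shares below 0 were also high in other tissues, at 84.6% for pancreatic acinar, 85.7% for kidney tubule and 79.2% for skeletal muscle genes. They were 64.3% for intestinal, 50% for erythroid and 36.4% for fat genes. In the same order, an unadjusted p under 0.05 (limma) was reached by 23.1%, 0%, 4.17%, 14.3%, 25% and 9.09%. A share below 0 over that of all genes was therefore not particular to the liver lists.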

How the data were processed

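RNA from 6 mouse muscles was measured on 6 arrays. The values, deposited by the authors as 1 table for 35557 probe sets, are on a log2 scale; the steps of summarization and normalization are not stated in the labels. That scale follows from their span (1.41 to 15.1), and they were used as deposited, while raw intensities were not used, so signal over background is unknown. Symbols came from the platform annotation: 21789 probe sets had 1 symbol, 1621 several and 12147 none, and those were not named. No array copied another. Arrays were grouped by their transgenic or wild-type label, and replicate numbers follow deposit order.

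TG minus WT was fitted with limma 3.58.1 (lmFit, eBayes; R 4.3.3), two-sided, with Benjamini-Hochberg adjustment over 19938 genes and a threshold of 0.05. The function was tested on simulated data. The genes, lists and tests were chosen with earlier results of these data known. Every one of the 35 is named, values per array are given for up to 4 per role with the widest range (Hp, Vtn and Arg1 were added after their values were seen), 4 genes are named per list by range, with others added likewise, and 20 by likeness. Promoters came from RefSeq (GRCm38.p6), and the motifs were chosen after the data were seen. Python 3.11.15 and matplotlib 3.10.9 made summaries and figures. Tried besides were limma's intensity trend, its robust moderation and its array weights, a test of all probe sets, a filter to genes over the median level, averaged probe sets, arrays set to equal quantiles or to equal medians, and each array left out.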

Additional observations from a re-analysis of the deposited data

How the results depend on the processing

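With 3 arrays per group and a spread set by single mice, differences well over 1 on the log2 scale could not be told from 0 in the most variable transcripts, and low signals could not be set against background. No paired analysis was possible because the arrays carry no shared replicate numbers. None of the 35 transcripts was called under any alternative (470 fits of a transcript). Over all genes the single call became 7 with an intensity trend, 2 among genes above the median level, 0 with robust moderation, 0 with every probe set tested, 0 with a common array median, and 0 without each array in turn, while 1 gene was called with array weights, with the mean of probe sets and with quantile normalization. The median difference of the 35 lay between -0.76 and -0.070 without each array in turn, and was -0.66 for the 15 above the median level and -0.28 with array weights. That of the 88 further hepatocyte genes lay between -0.23 and -0.075 without each array in turn and was 0.019 among those above the median level. The sign of a transcript's difference turned in 17 of the 470 fits, 16 of them with an array left out. An intensity trend, robust moderation, the filter by level and the test of every probe set leave a transcript's difference unchanged. Its sign could not turn in those fits, and averaging probe sets changed the values of Fga alone, so the count is no measure of robustness. Without each array in turn, Alb lay between -2.06 and 0.13, Hp between -0.46 and 0.28, Apoc3 between -0.81 and 0.083, Fgb between -1.37 and 0.0086, Kng1 between -0.88 and 0.015, Cps1 between -0.76 and 0.0051, Cyp2e1 between -0.35 and 0.041, Rbp4 between -0.52 and 0.028, Cyp3a11 between -0.39 and 0.65, and Tdo2 between -0.56 and 0.37. Tdo2 was also at 0.053 with array weights. The cause of these turns beyond the smaller number of arrays was not tested. The median deviation of each array kept its sign with quantile normalization, a common median, the mean of probe sets and genes above the median level.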

Other observations

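Inmt, an indolethylamine methyltransferase gene of the hepatocyte list that was singled out after its values were seen, was highest on TG array 3, where most of the 35 were lowest, with levels of 9.02, 8.86 and 9.71 on the TG arrays and 9.47, 9.27 and 8.69 on the WT arrays and an r of -0.74 with the mean of the 35 over 6 arrays, which was -0.28 without TG arrays 2 and 3. Sult1a1, a sulfotransferase gene of the same list with a range of 0.41, had an r of -0.85, and of -0.55 without these arrays. Cyp4a14 was raised on 1 array alone, with TG array 2 at 5.97 and the other arrays between 3.75 and 4.52. Saa2 on WT array 2 was the widest departure outside the 35, and its range of 3.40 ranked 4 among all genes.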
